A study of Mus musculus with 8 samples.

Results

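The comparison described here sets *Eif4a2* knockout (KO) mouse embryonic stem cells (ESCs) in which the full-length helicase had been put back against the same KO ESCs carrying an empty vector (EV), and asks which RNAs differ between them in whole lysate. It used the input libraries, the RNA of the lysate before any antibody was added, and so 4 of the 8 libraries of a study whose aim was to find the transcripts bound by eIF4A2. The 2 libraries labelled input *Eif4a2* KO + EV came from KO ESCs with the empty vector, and the 2 labelled input *Eif4a2* KO + Eif4a2flag (here eIF4A2FL) from KO ESCs with a Flag-tagged full-length *Eif4a2*. The other 4 libraries were anti-Flag RNA immunoprecipitations (RIP) of the same 2 kinds of cells.

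All 4 inputs shared the KO background, the ES-DMEM-2i medium with 1.5 µM CHIR99021 (a GSK3 inhibitor), 0.5 µM PD0325901 (a MEK inhibitor) and 10 ng/ml LIF, and the 3′ tag chemistry, which yields 1 fragment next to the poly(A) tail of each captured RNA. Per the study's methods the parent line carries Cas9 and a *Rex1* reporter, the transgene is driven by the constitutive CAG promoter from a piggyBac transposon, and the replicates of a re-expressed isoform were 2 separate clones. An eIF4A2FL library is therefore 1 clone. Nothing in the labels says whether the 2 EV libraries came from separate clones or cultures, so the p-values rest on a spread among 4 libraries that may be technical in part. No group of unedited cells was among the inputs, and a difference between EV and eIF4A2FL cannot be told apart from a difference between the clones that carry them.

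eIF4A2 is a DEAD-box RNA helicase and a close paralog of eIF4A1, the helicase of the cap-binding complex eIF4F that unwinds 5′ leaders for ribosome scanning. It is also known as a partner of the CCR4-NOT deadenylase in microRNA-mediated repression. ESCs held with GSK3 and MEK inhibitors and LIF are in the naive pluripotent state, with β-catenin signalling on, ERK signalling down and STAT3 active. One known link from translation to the transcriptome in mouse cells is the integrated stress response, in which phosphorylated eIF2 favours translation of the transcription factor ATF4.

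The edited locus and the transgene decide what a 3′ tag of *Eif4a2* can report, and the sequences that fix both are shown for that reason. The study lists 1 pair of guides for the full *Eif4a2* KO, numbered here in the order of that list, and each matched chromosome 16 once (GRCm38, plus strand, 5′ to 3′). In both cases CCC, the complement of a GGG protospacer adjacent motif on the minus strand, stood directly before the listed bases. It is given in capitals, the 20 listed bases follow in lower case, and the last 3 bases are the genomic bases after them.
Guide 1, listed bases at chr16:23110095-23110114: CCCtcacattgttgttggtactccag
Guide 2, listed bases at chr16:23112521-23112540: CCCaaggcattttgtatgttagcatt
With cuts 3 bases from the motif, the removed stretch would be chr16:23110098-23112523, or 2426 bases. In the principal transcript Eif4a2-201, which has 11 exons, it begins inside exon 5 and takes exons 6 to 10 whole, with 618 of 1221 coding bases (50.6%). Exon 11, of 781 bases, holds the stop codon and the 3′ end and lies beyond the second cut.

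The cloning primers of the transgene matched the first and the last codons of the coding sequence and nothing outside it but 1 base before the start codon. Bases that match the genome are in capitals.
Forward primer, matching chr16:23107791-23107808, plus strand: ataaggatcCATGTCTGGTGGCTCCGC
Reverse primer, matching chr16:23113287-23113311, minus strand: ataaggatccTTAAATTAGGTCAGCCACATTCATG
The 3′ end of the endogenous gene is thus outside the removed stretch and absent from the transgene.

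**Figure D1:**
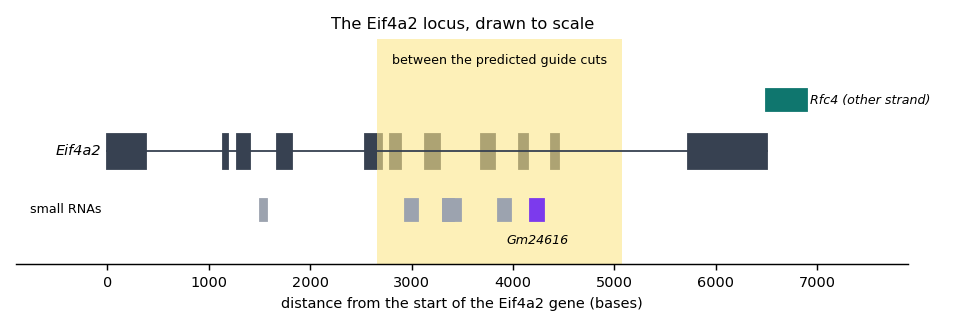
The *Eif4a2* locus by distance in bases from the gene's start (x axis), with the 11 exons of the principal transcript as dark boxes, annotated small RNA genes as grey boxes (no reads in any input) or a violet box (*Gm24616*, read in all 4), and the end of *Rfc4* on the other strand, whose full length is not drawn. The shaded stretch of 2426 bases lies between the predicted guide cuts and does not reach the last exon.

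Tags of *Eif4a2* were found at similar levels in both groups. *Eif4a2* (chromosome 16, 23107444 to 23114136, plus strand) had 391 and 302 reads in the EV and 401 and 430 reads in the eIF4A2FL libraries. Scaled to the total of gene reads (CPM, the count for each 1e+06 gene reads, with the trimmed mean of M-values, TMM, correcting for composition), these were 56.6 and 90.8 CPM in EV and 89.9 and 67.3 CPM in eIF4A2FL, and the groups overlapped. The log2 fold change, eIF4A2FL minus EV as everywhere below, was 0.10 ± 0.34, where ± gives the standard error (SE) of the edgeR fit here and below, with an adjusted p of 0.969 by edgeR. Its sign depended on the libraries: without EV replicate 1 it was -0.18, without eIF4A2FL replicate 1 it was -0.11, and without EV replicate 2 it was 0.47. Tags are taken next to the 3′ end, which the KO keeps and the transgene lacks. How far tags of the transgene's own RNA reach into the coding sequence is not known. These counts therefore check neither the knockout nor the re-expression. The study examined its re-expressing clones by Western blot for eIF4A2, and reports full-length protein close to the endogenous level. *Rfc4*, which ends on the other strand within the annotated end of *Eif4a2*, had 96 and 24 reads in EV and 58 and 129 reads in eIF4A2FL.

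The paralog *Eif4a1* stood at 302 and 328 CPM in EV and 323 and 357 CPM in eIF4A2FL, a log2 fold change of 0.11 ± 0.31. *Gadd45b*, a stress-inducible gene of the GADD45 family, had 12.9 and 9.32 CPM in EV and 8.96 and 15.5 CPM in eIF4A2FL, and its log2 fold change of 0.13 ± 0.47 was smaller than its error and turned to -0.32 without eIF4A2FL replicate 2 and -0.07 without EV replicate 2. The groups overlapped for both genes.

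Among the annotated small RNAs of the *Eif4a2* introns, *Gm24201*, *Gm49346*, *Snora81* and *Gm26447* between the guides and *Snord2* before them had no read in any input. A count of 0 allows up to 3 reads, or 0.413 to 0.936 CPM depending on the library; all such limits and intervals cover counting error alone. *Gm24616*, a snoRNA of 139 bases within the predicted deletion (chr16:23111617-23111755), had 227 and 166 reads in the EV libraries, and 108 and 257 reads in the eIF4A2FL libraries. Reads were thus assigned to it in KO cells of both groups. The best match to it elsewhere in GRCm38 was a stretch of chromosome 1 that was 93.5% identical over 139 aligned bases, and 3 further partial matches lay on chromosomes 9, 10 and X. Whether reads from such copies were counted there was not tested.

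The 4 inputs held 7269765 and 3204369 reads on genes in EV and 4620862 and 6225787 in eIF4A2FL. In the column headers, the library number of EV replicate 1 stands apart from the run of numbers of all other libraries. EV replicate 2 was the shallowest library and differed in make-up: 30.0% of its reads fell on genes and 17.6% outside annotated exons, against 40.9% to 46.4% and 8.58% to 13.1% in the other 3. RNA of the mitochondrial genome was 2.44% of its gene reads, against 0.793% to 1.11% in the others. *Gm42418*, a noncoding gene that overlaps a ribosomal RNA repeat, took 10.5% and 9.44% of the gene reads in the replicates numbered 1 and 1.83% and 0.0701% in those numbered 2. Of 10 naive and core ESC markers all were measured in the 4 libraries, summing to 2256 to 3151 CPM. Of 7 fibroblast markers none reached the filter and *Col1a2*, *Col3a1*, *Postn*, *Dcn* and *Lum* had no read. Of 8 extraembryonic endoderm markers *Lama1* and *Col4a1* reached it, and *Sox17* and *Cubn* had no read.

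Across the transcriptome no single gene passed correction for multiple testing in the main fit. Of the 52550 genes in the count table, 10754 had at least 1 CPM in all 4 inputs and were tested with edgeR's quasi-likelihood test. None had an adjusted p under 0.05 (0%), and the smallest adjusted p was 0.109. Before adjustment, 402 genes higher in eIF4A2FL (3.74%) and 394 lower ones (3.66%) had a p under 0.05. limma voom also called 0 genes; before adjustment its p was under 0.05 for 404 higher and 364 lower ones. DESeq2, another count model, called 12 genes higher (0.118% of the 10129 to which it gave an adjusted p) and 5 lower (0.0494%). Both eIF4A2FL values lay above both EV values for 2065 genes (19.2%) and below for 2050 (19.1%), and the counts of members below are set against these shares. The number of calls depended on single libraries: edgeR called 32 genes higher and 53 lower without EV replicate 1, 19 and 15 without eIF4A2FL replicate 1, 1 and 0 without eIF4A2FL replicate 2, and 0 and 0 without EV replicate 2.

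The median size of the log2 difference was 0.42 between the EV libraries, 0.39 between the eIF4A2FL libraries and 0.33 between the group means, and more than 2-fold differences were seen for 1540, 1239 and 720 of the 10754 genes. The first 2 are differences of single libraries and the last of means of 2, so their sizes are not set against each other. The biological coefficient of variation was 29%. The median log2 fold change over all tested genes was -0.01, with the middle of the distribution running from -0.34 to 0.32. In bulk lysate, fewer cells of a type and less RNA per cell cannot be told apart.

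The 12 transcripts with the smallest p among those higher in eIF4A2FL did not pass the test in edgeR, and all 12 were called by DESeq2. In every one both eIF4A2FL values lay above both EV values, which a choice by smallest p favours. *Gdf15*, a secreted stress cytokine of the TGF-β superfamily, stood at 24.3 and 16.2 CPM in EV and 117 and 91.7 CPM in eIF4A2FL, a log2 fold change of 2.35 ± 0.35. Its adjusted p was 0.109 in edgeR and 1.78e-05 in DESeq2, and it was called in 8 of the 15 other settings tried. *Hk1*, the hexokinase that feeds glucose into glycolysis, had 35.4 and 22.6 CPM in EV and 87.2 and 142 CPM in eIF4A2FL, a log2 fold change of 1.97 ± 0.37 with adjusted p 0.343 in edgeR and 0.00375 in DESeq2. *Ddit4* (REDD1), a stress-induced inhibitor of mTORC1, had 43.8 and 31.3 CPM in EV and 97.9 and 129 CPM in eIF4A2FL (log2 1.59 ± 0.33).

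Several of the other genes in this group encode membrane and signalling proteins. *Adgrd1*, an adhesion G protein-coupled receptor, was measured at 5.79 and 4.21 CPM in EV and 23.1 and 40.98 CPM in eIF4A2FL. *Chrna4*, a nicotinic acetylcholine receptor subunit, was measured at 2.61 and 1.804 CPM in EV and 11.4 and 20.6 CPM in eIF4A2FL. The log2 fold changes of these receptors, 2.65 and 2.81, were the largest in the group, from few reads. *Hpcal1*, a neuronal calcium sensor of the visinin-like family, had 10.7 and 9.93 CPM in EV and 33.4 and 42.4 CPM in eIF4A2FL. *Fxyd6*, a regulator of the sodium-potassium ATPase, had 73.01 and 57.4 CPM in EV and 148 and 209.7 CPM in eIF4A2FL. *Arl4c*, a small GTPase of the ARF family, stood at 9.13 and 8.72 CPM in EV and 25.3 and 40.2 CPM in eIF4A2FL. In these 5 genes, on the log scale, the libraries of a group lay closer to each other than to the other group. Genes picked for the smallest p will mostly have this pattern, so it is no separate result.

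The remaining 4 work largely inside the cell. *Mcm3ap*, which encodes the mRNA export scaffold GANP, had 52.7 and 72.5 CPM in EV and 161 and 207 CPM in eIF4A2FL (log2 1.56 ± 0.33). *U2af1*, the splicing factor subunit that reads the 3′ splice site, had 76.8 and 66.2 CPM in EV and 170.3 and 209.7 CPM in eIF4A2FL (log2 1.41 ± 0.31). Both act on pre-mRNA or its export from the nucleus. *Rpl10l* is an intronless ribosomal protein gene best known from the germline. It had 307 and 261 CPM in EV and 1066 and 664 CPM in eIF4A2FL (log2 1.60 ± 0.35). It is a near copy of *Rpl10*, so how reads were shared between them is uncertain. *Rpl10* itself had only 6 and 12 reads in EV and 12 and 19 reads in eIF4A2FL. *Rpl10l* had 2121 and 868 reads in EV and 4755 and 4242 reads in eIF4A2FL. *Kbtbd11*, a Kelch-repeat protein, stood at 4.201 and 5.11 CPM in EV and 32.5 and 17.8 CPM in eIF4A2FL.

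Among the 12 transcripts lower in eIF4A2FL with the smallest p, the leading genes were *Ccnd2* and *Id3*. *Ccnd2*, a D-type cyclin that drives entry into S phase, had 114 and 198 CPM in EV and 26.7 and 34.2 CPM in eIF4A2FL, a log2 fold change of -2.35 ± 0.36 with adjusted p 0.109 in edgeR and 1.78e-05 in DESeq2. *Id3*, an inhibitor of basic helix-loop-helix factors and a classical BMP target, had 169.9 and 239 CPM in EV and 43.03 and 50.5 CPM in eIF4A2FL (log2 -2.12 ± 0.33, adjusted p 0.109 in edgeR and 1.78e-05 in DESeq2). In both, the highest eIF4A2FL value was far below the lowest EV value, which the choice by smallest p also favours. *Mest*, a paternally expressed imprinted gene, had 84.9 and 236 CPM in EV and 25.1 and 43.5 CPM in eIF4A2FL (log2 -2.21 ± 0.47) with EV replicate 2 far above EV replicate 1. Its log2 fold change was -1.30 without EV replicate 2 and -2.74 without EV replicate 1. *Gpn2*, a GTPase linked to RNA polymerase assembly, had 22.3 and 29.8 CPM in EV and 6.28 and 6.26 CPM in eIF4A2FL (log2 -2.04 ± 0.43). DESeq2 called these 4 and *Gm28809*; *Nkx6-2*, a homeobox gene, had 38.7 and 42.1 CPM in EV and 12.6 and 17.2 CPM in eIF4A2FL (log2 -1.43 ± 0.37) and was called by neither.

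The other lower transcripts were mostly not messenger RNAs of the nuclear genome. *Gm28809* is annotated as antisense (11.9 and 9.93 CPM in EV and 1.79 and 1.72 CPM in eIF4A2FL), *Gm26448* and *Scarna9* as snoRNAs, *Gm45501* and *Gm43511* as loci whose existence is still to be tested by experiment (class TEC) and *Gm46332* as a long intergenic RNA. *mt-Nd2* encodes a subunit of respiratory complex I on the mitochondrial genome. *Scarna9* had 20.6 and 41.2 CPM in EV and 10.3 and 5.005 CPM in eIF4A2FL. *mt-Nd2* had 409 and 866 CPM in EV and 248 and 209 CPM in eIF4A2FL. In both, EV replicate 2 was the highest library. For an antisense gene, reads of the partner strand cannot be told apart, since the strand setting of the counting is not given in the sources used here.

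**Figure D2:**
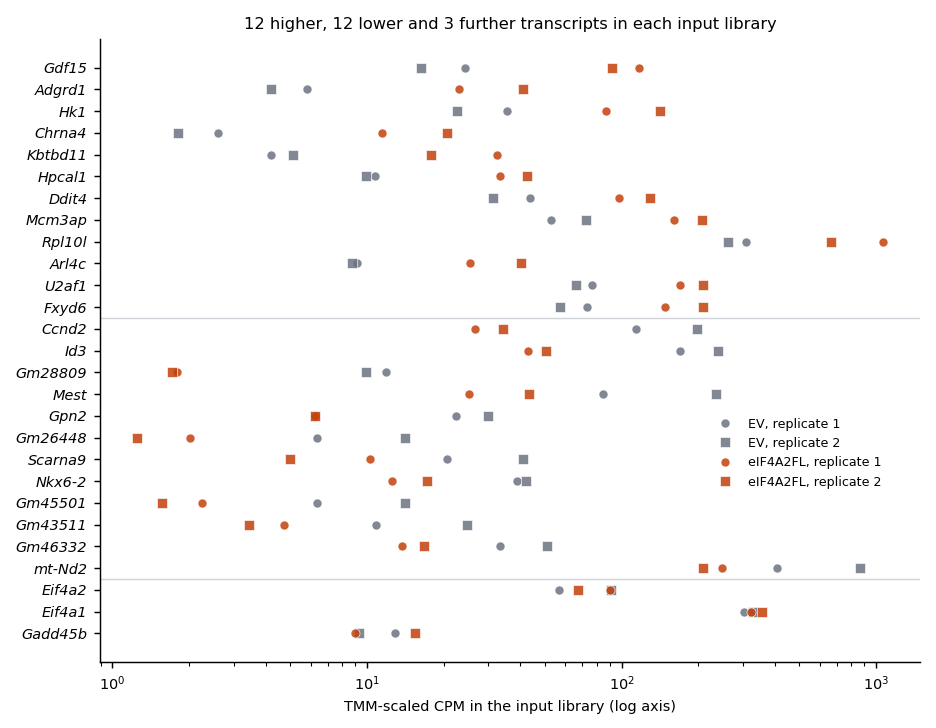
TMM-scaled CPM (log axis) of 27 transcripts in each of the 4 input libraries, grey for EV and orange for eIF4A2FL, circles for replicate 1 and squares for replicate 2. The upper 24 were chosen for the smallest p in each direction and show no overlap between groups, while *Eif4a2*, *Eif4a1* and *Gadd45b* at the bottom overlap.

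Of the gene lists that follow, the 2 members with the highest mean CPM were chosen by rule, and every other member named was singled out after its values had been seen. In the main edgeR fit no member of any list passed adjustment over all genes. In other edgeR fits some did, among them the following: 4 integrated stress response and 2 glycolysis and hypoxia genes were called higher with no filter on low counts, and with the replicate number as a block 4 of each were called higher and 3 mitochondrially encoded RNAs lower.

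Many listed genes of glucose use and the hypoxia response stood higher in both eIF4A2FL clones than in either EV library. Of 41 genes listed for glycolysis and the response to hypoxia, 39 were tested. Both eIF4A2FL values lay above both EV values for 25 of them (64.1%, against 19.2% of all tested genes) and below for 5 (12.8%, against 19.1%). The median log2 fold change of the list was 0.72, against -0.01 over all genes, and 12 members higher and 2 lower had an unadjusted p under 0.05.

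By level, the list was led by *Slc2a3* and *Aldoa*. *Slc2a3*, a high-affinity glucose transporter, had 614 and 246 CPM in EV and 751 and 994 CPM in eIF4A2FL (log2 1.02 ± 0.42). *Aldoa*, the main aldolase, had 516 and 236 CPM in EV and 783 and 635 CPM in eIF4A2FL (log2 0.91 ± 0.39). Along the pathway, the basal transporter *Slc2a1* had 90.2 and 78.8 CPM in EV and 109.8 and 131 CPM in eIF4A2FL (log2 0.51 ± 0.31). The phosphofructokinase genes *Pfkp* and *Pfkl* encode the committed step. *Pfkp* had 87.1 and 37.3 CPM in EV and 143 and 151 CPM in eIF4A2FL (log2 1.23 ± 0.39). *Pfkl* had 40.9 and 27.4 CPM in EV and 56.9 and 65.8 CPM in eIF4A2FL (log2 0.84 ± 0.34). At the end of the pathway stand pyruvate kinase, lactate dehydrogenase and the lactate exporter MCT4. *Pkm*, the pyruvate kinase of these cells, had 415 and 164 CPM in EV and 493 and 494 CPM in eIF4A2FL (log2 0.77 ± 0.41). *Ldha*, lactate dehydrogenase A, had 316 and 133 CPM in EV and 363 and 349.7 CPM in eIF4A2FL (log2 0.67 ± 0.39). *Slc16a3*, which encodes MCT4, had 101 and 99.2 CPM in EV and 147 and 199 CPM in eIF4A2FL (log2 0.79 ± 0.31). In each of these 8 genes EV replicate 2 was the lowest library, and on the log scale EV replicate 1 lay closer to eIF4A2FL replicate 1 than to EV replicate 2 for all but *Slc2a1* and *Slc16a3*.

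A few members went the other way. *Pdk1*, which shuts off pyruvate dehydrogenase, had 149.8 and 134 CPM in EV and 64.8 and 106 CPM in eIF4A2FL (log2 -0.73 ± 0.33). *Ak4*, a mitochondrial adenylate kinase, had 74.8 and 282 CPM in EV and 97.3 and 61.9 CPM in eIF4A2FL (log2 -1.16 ± 0.50). For *Ak4* EV replicate 2 stood far above the other 3, while for *Pdk1* both eIF4A2FL values lay below close EV values. *Gapdh* had 7.53 and 3.61 CPM in EV and 2.46 and 2.503 CPM in eIF4A2FL. *Eno1* had 62.6 and 47.8 CPM in EV and 44.8 and 27.7 CPM in eIF4A2FL. Both have processed copies in the genome, and reads that matched several places were left uncounted, so these levels are uncertain. The same rule applied to every gene, and the levels of the higher members can be affected too. Another annotated entry of *Aldoa* had no read in any input. *Pgk1*, a glycolytic kinase, was under the filter with 5 and 5 reads in EV and 6 and 31 reads in eIF4A2FL.

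Hypoxia response genes outside glycolysis were also among the higher members. *Bnip3*, a mitophagy receptor, had 26.4 and 7.22 CPM in EV and 31.1 and 44.7 CPM in eIF4A2FL (log2 1.14 ± 0.50). *P4ha1*, a collagen prolyl hydroxylase subunit, had 5.36 and 9.93 CPM in EV and 17.3 and 14.9 CPM in eIF4A2FL (log2 1.10 ± 0.48). *Ndrg1* had 10.9 and 5.11 CPM in EV and 24.6 and 12.98 CPM in eIF4A2FL (log2 1.19 ± 0.51). The groups overlapped for none of these 3.

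Hypoxia-inducible factors are known to bind a core of ACGTG or GCGTG. Those letters were searched on both strands, overlaps included, in the 300 bases around each annotated start site (250 before and 50 after, RefSeq, GRCm38.p6). They stood there in 31 of the 34 tested members with a promoter sequence (91.2%), in 19 of the 21 whose eIF4A2FL values both lay above (90.5%), in 70.4% of the 8239 tested genes with one and in 46.7% of all 27025 genes with one. Genes can have several start sites; counted by promoter, the core was in 42 of 53 (79.2%) of the members' promoters and 6778 of 10558 (64.2%) of those of tested genes. The core is short and common, and a match is not a bound site. The list was drawn up from known genes of glycolysis and the hypoxia response, so its share is partly set by that choice. Promoters of *Ddit4*, a leading higher transcript, and *Pfkp*, of the committed step, are shown with their 2 and 4 matches in capitals.
*Ddit4* (chr10:59951721-59952020, minus strand): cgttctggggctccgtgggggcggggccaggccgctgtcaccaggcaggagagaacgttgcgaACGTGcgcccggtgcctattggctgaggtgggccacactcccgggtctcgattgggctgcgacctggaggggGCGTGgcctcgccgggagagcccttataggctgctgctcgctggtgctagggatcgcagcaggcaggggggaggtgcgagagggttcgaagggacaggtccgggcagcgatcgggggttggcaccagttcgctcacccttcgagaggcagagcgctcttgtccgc
*Pfkp* (chr13:6648722-6649021, minus strand): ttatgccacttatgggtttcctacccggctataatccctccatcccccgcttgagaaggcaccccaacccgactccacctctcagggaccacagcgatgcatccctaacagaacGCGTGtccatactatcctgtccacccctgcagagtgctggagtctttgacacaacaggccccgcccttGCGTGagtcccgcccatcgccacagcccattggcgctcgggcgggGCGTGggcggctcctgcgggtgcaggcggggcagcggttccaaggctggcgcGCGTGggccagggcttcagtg

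Genes of the integrated stress response also stood mostly higher. Of 35 listed genes 32 were tested. Both eIF4A2FL values lay above both EV values for 17 (53.1%, against 19.2%) and below for 0 (against 19.1%). The median log2 fold change was 0.53, and 7 higher and 0 lower members had an unadjusted p under 0.05.

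The most abundant members overlapped between groups. *Atf4*, the transcription factor at the centre of the response, had 909.5 and 679 CPM in EV and 688 and 1236 CPM in eIF4A2FL (log2 0.28 ± 0.37). *Gars*, glycyl-tRNA synthetase, had 480.1 and 376 CPM in EV and 478 and 759 CPM in eIF4A2FL (log2 0.53 ± 0.34). For both the highest library was eIF4A2FL replicate 2. *Ppp1r15a* (GADD34), the feedback phosphatase subunit, had 35.9 and 42.1 CPM in EV and 36.8 and 40.98 CPM in eIF4A2FL (log2 -0.002 ± 0.33).

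Below them in level stood genes whose groups did not overlap. *Ddit3* (CHOP), a transcription factor induced by ATF4, had 24.8 and 16.8 CPM in EV and 47.7 and 67.7 CPM in eIF4A2FL (log2 1.46 ± 0.36). *Nupr1*, a small stress-induced chromatin protein, had 37.5 and 12.03 CPM in EV and 70.8 and 91.03 CPM in eIF4A2FL (log2 1.68 ± 0.45). Enzymes of amino acid synthesis made up much of the rest. *Psat1*, of the serine pathway, had 154 and 80 CPM in EV and 209 and 369 CPM in eIF4A2FL (log2 1.30 ± 0.40). *Shmt2*, which moves serine carbon into the mitochondrial folate cycle, had 71.7 and 40.3 CPM in EV and 95.2 and 120.1 CPM in eIF4A2FL (log2 0.94 ± 0.35). *Pycr1*, of proline synthesis, had 18.1 and 9.32 CPM in EV and 26.7 and 57.7 CPM in eIF4A2FL (log2 1.60 ± 0.46). *Asns*, asparagine synthetase, is a standard ATF4 target. It had 119 and 119 CPM in EV and 159.6 and 212 CPM in eIF4A2FL (log2 0.65 ± 0.31). *Cth*, which makes cysteine, had 17.4 and 14.4 CPM in EV and 28.01 and 37.4 CPM in eIF4A2FL (log2 1.03 ± 0.38). *Ddit4*, *Sesn2* and *Vegfa* are members of this list and of others.

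ATF4 with C/EBP partners is known to act on the C/EBP-ATF response element (CARE), searched here as TGATGNAA on both strands. It was found in the promoters of 7 of the 26 tested members with a promoter sequence (26.9%). Of the 8239 tested genes with one, 2.45% held it, and of all 27025 genes 4.51%. Among the 7, *Asns*, *Chac1*, *Got1*, *Nupr1*, *Pycr1* and *Trib3* had both eIF4A2FL values above both EV values, and *Gars* had overlapping groups. Of the 14 members with a promoter sequence that were higher in this way, 6 held the motif (42.9%). The list was drawn up from known genes of this response, among them known ATF4 targets, so a share above that of all genes is partly set by that choice. A match is not a bound site, and whether ATF4 acted on these genes here was not tested. No match, as for *Ddit3*, *Ddit4*, *Psat1* and *Shmt2*, says only that these letters are not in the window. The matches are shown in capitals on the gene's strand with 20 bases on either side, to compare their letters and orientation (RefSeq, GRCm38.p6).
*Asns* (chr6:7693205-7693252, minus strand): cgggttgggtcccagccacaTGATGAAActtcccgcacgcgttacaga
*Pycr1* (chr11:120643824-120643871, minus strand): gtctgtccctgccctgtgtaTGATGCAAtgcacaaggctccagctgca
*Nupr1* (chr7:126625553-126625600, minus strand): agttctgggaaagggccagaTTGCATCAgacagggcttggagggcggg
*Chac1* (chr2:119351029-119351076, plus strand): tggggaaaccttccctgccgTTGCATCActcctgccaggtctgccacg
*Got1* (chr19:43524680-43524727, minus strand): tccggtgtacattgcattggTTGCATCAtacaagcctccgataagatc
*Trib3* (chr2:152344019-152344066, minus strand): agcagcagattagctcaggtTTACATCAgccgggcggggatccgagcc
*Gars* (chr6:55037951-55037998, plus strand): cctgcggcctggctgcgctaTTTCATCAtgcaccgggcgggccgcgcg
*Asns* and *Pycr1* hold the motif as written and the others its complement. *Chac1*, which breaks down glutathione, had 7.39 and 1.504 CPM in EV and 10.5 and 12.98 CPM in eIF4A2FL (log2 1.31 ± 0.61). *Trib3*, a pseudokinase that feeds back on ATF4, had 40.6 and 18.04 CPM in EV and 40.8 and 56.8 CPM in eIF4A2FL (log2 0.72 ± 0.41). In *Trib3* EV replicate 1 and eIF4A2FL replicate 1 were nearly level.

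**Figure D3:**
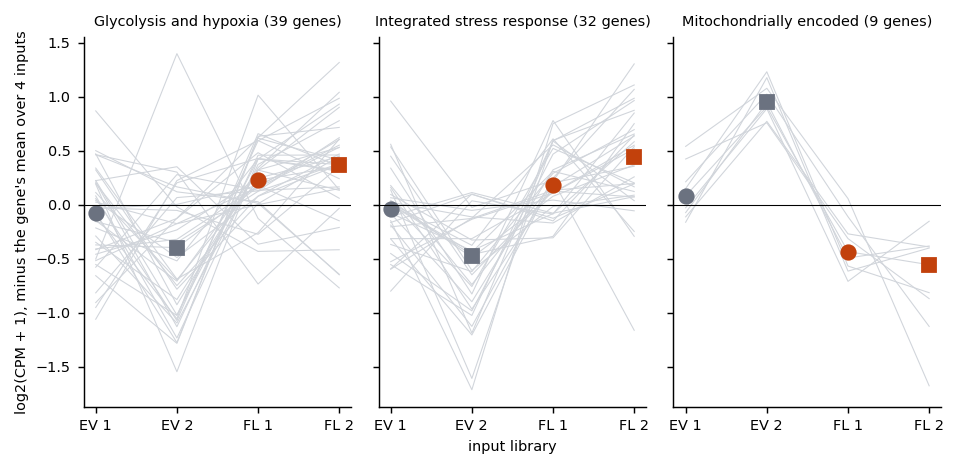
log2(CPM + 1) of each list member in the 4 inputs, minus that gene's mean over the 4 (grey lines), with the list's median in each library as large symbols, grey for EV, orange for eIF4A2FL (FL), circles for replicate 1 and squares for replicate 2. EV replicate 2 lies farthest from the others in all 3 panels, at -0.40, -0.47 and 0.95 against -0.07, -0.04 and 0.08 in EV replicate 1.

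The size of these shifts rested in part on EV replicate 2. Relative to each gene's mean over the 4 inputs, the median of the glycolysis and hypoxia list was -0.07 and -0.40 in the EV libraries and 0.23 and 0.37 in the eIF4A2FL libraries, and that of the integrated stress response list -0.04 and -0.47, and 0.19 and 0.44. EV replicate 2 was the lowest of the 4 libraries for 22 of 39 and 21 of 32 members. Without it, the lists' medians were 0.51 and 0.33, 26 of 39 and 21 of 32 members were higher in both eIF4A2FL libraries than in the 1 EV library left (32.7% of all genes), and 6 and 4 were lower (32.9%); these counts were added after the data had been seen. Over the 4 leave-outs the medians ran from 0.51 to 0.83 and from 0.33 to 0.84. The part of that library's depth and make-up in the shifts was not tested.

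RNAs of the mitochondrial genome were mostly lower in eIF4A2FL. All 9 tested of 15 listed had both eIF4A2FL values below both EV values, against 19.1% of all tested genes. Their median log2 fold change was -1.16, and 8 had an unadjusted p under 0.05. *mt-Nd4*, of complex I, had 3704 and 9365 CPM in EV and 2707 and 3139 CPM in eIF4A2FL (log2 -1.16 ± 0.46). *mt-Cytb*, of complex III, had 2623 and 4955 CPM in EV and 1636 and 2406 CPM in eIF4A2FL (log2 -0.91 ± 0.41). The ribosomal RNAs of the organelle ran alike. *mt-Rnr1*, the small one, had 772 and 1356 CPM in EV and 617 and 305 CPM in eIF4A2FL (log2 -1.21 ± 0.41). *mt-Rnr2*, the large one, had 1518 and 2204 CPM in EV and 1086 and 326 CPM in eIF4A2FL (log2 -1.40 ± 0.49). EV replicate 2 was the highest library for 9 of 9. Without it the median log2 fold change was -0.57. All 9 were still lower than in EV replicate 1, as were 32.9% of all genes. Over all 12 tested transcripts of the mitochondrial genome, listed or not, 10 lay below without overlap (83.3%) and 0 above. The listed *mt-Nd4l*, *mt-Co2*, *mt-Co3*, *mt-Atp6* and *mt-Atp8* had no counted read in any input, and the reason was not tested.

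Several noncoding classes also had more values below than above. Both eIF4A2FL values lay below both EV values for 39 of 120 long intergenic RNAs (32.5%), 22 of 76 antisense genes (28.9%), 17 of 43 TEC loci (39.5%) and 11 of 41 snoRNAs (26.8%), against 18.8% of 10087 protein-coding genes. Their median log2 fold changes were -0.33, -0.39, -0.54 and -0.20, against -0.003 for protein-coding genes. Processed pseudogenes went the other way, with 55 of 231 above (23.8%), 28 below (12.1%) and a median of 0.125. The share of reads outside annotated exons was 13.1% and 17.6% in the EV libraries and 12.3% and 8.58% in the eIF4A2FL libraries, in the same direction, and its part in these values was not tested.

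**Figure D4:**
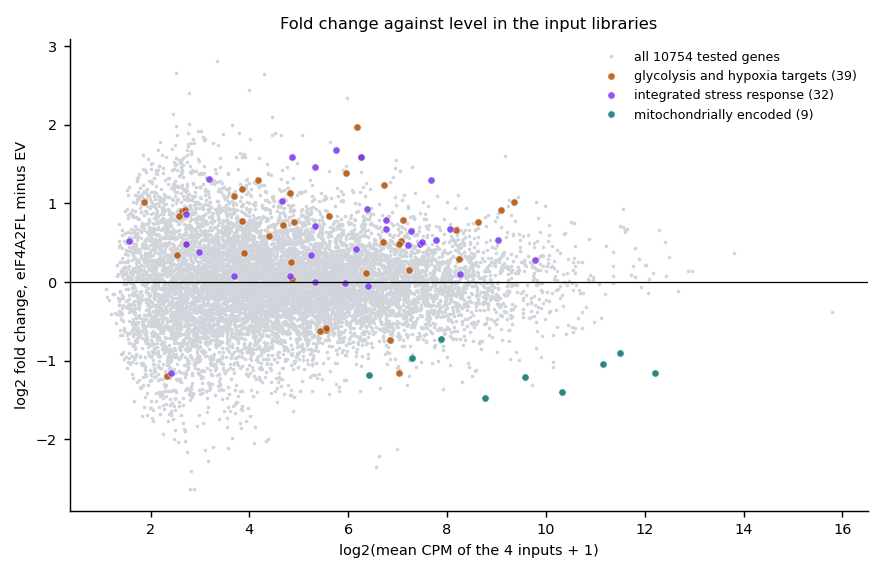
log2 fold change (eIF4A2FL minus EV, y axis) against log2(mean CPM + 1) over the 4 inputs (x axis) for the 10754 tested genes in grey, with 3 lists marked. Members of the glycolysis and hypoxia and integrated stress response lists lie mostly above 0 over the whole range of levels, with medians of 0.72 and 0.53, and all 9 mitochondrially encoded RNAs lie below.

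Targets of p53 included *Gdf15*, the gene with the smallest p of all, which ATF4 and CHOP also induce. Of 23 tested genes, 10 had both eIF4A2FL values above both EV values (43.5%, against 19.2%) and 1 below (4.35%, against 19.1%). The median log2 fold change was 0.29, and 7 higher and 0 lower members had an unadjusted p under 0.05. *Mdm2*, the ubiquitin ligase of p53, had 208 and 268 CPM in EV and 372 and 318 CPM in eIF4A2FL (log2 0.54 ± 0.32). *Bax*, a pro-apoptotic effector, had 98.8 and 157 CPM in EV and 104 and 130 CPM in eIF4A2FL (log2 -0.12 ± 0.33). *Bax* thus overlapped. *Cdkn1a* (p21), a cyclin-dependent kinase inhibitor, had 23.2 and 33.98 CPM in EV and 54.01 and 43.2 CPM in eIF4A2FL (log2 0.77 ± 0.35). *Zmat3*, an RNA-binding protein, had 72.4 and 70.1 CPM in EV and 123 and 124 CPM in eIF4A2FL (log2 0.80 ± 0.30). *Bbc3* (PUMA), a pro-apoptotic BH3 protein, had 45.3 and 48.1 CPM in EV and 67.5 and 91.2 CPM in eIF4A2FL (log2 0.77 ± 0.32). In *Zmat3* and *Bbc3* the EV libraries were close to each other. The median of the list was 0.41 without EV replicate 2, 0.05 without eIF4A2FL replicate 1 and 0.64 without eIF4A2FL replicate 2.

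Targets of β-catenin, which CHIR99021 keeps active, included several low values in eIF4A2FL. Of 8 tested genes, 4 had both eIF4A2FL values below both EV values and 1 above, with a median of -0.77. *Ccnd1*, a D-type cyclin, had 369 and 337 CPM in EV and 397 and 164 CPM in eIF4A2FL (log2 -0.33 ± 0.40). *Tcf7*, a DNA-binding partner of β-catenin, had 20.7 and 27.4 CPM in EV and 14.3 and 13.1 CPM in eIF4A2FL (log2 -0.80 ± 0.40). *Ccnd1* overlapped, with eIF4A2FL replicate 2 low, and *Tcf7* did not. *Axin2*, a negative feedback gene, had 6.23 and 13.8 CPM in EV and 4.48 and 3.13 CPM in eIF4A2FL (log2 -1.38 ± 0.57). *Cdx1*, a homeobox gene, had 4.92 and 16.2 CPM in EV and 3.59 and 2.81 CPM in eIF4A2FL (log2 -1.69 ± 0.64). EV replicate 2 was the highest library for *Tcf7*, *Axin2* and *Cdx1*. The median of the list was -0.44 without eIF4A2FL replicate 2 and -1.19 without eIF4A2FL replicate 1.

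Of 15 tested FGF and ERK targets, which PD0325901 holds down, 4 were below and 2 above without overlap, with a median of -0.32. It was -0.10 without EV replicate 2 and -0.15 without eIF4A2FL replicate 2. The list shares *Ccnd1* with the one before. *Etv4*, an ETS factor, had 359 and 334 CPM in EV and 89.4 and 180 CPM in eIF4A2FL (log2 -1.36 ± 0.37). *Spry2*, a feedback inhibitor of receptor tyrosine kinases, had 155 and 123 CPM in EV and 70.8 and 76.3 CPM in eIF4A2FL (log2 -0.92 ± 0.31). *Egr1*, an immediate early gene, was at 5.07 and 5.41 CPM in EV and 2.46 and 1.09 CPM in eIF4A2FL. In these 3 the EV libraries were close to each other. *Dusp6* and *Etv5*, further targets, overlapped at log2 fold changes of -0.32 and 0.20.

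Of 14 tested LIF and STAT3 targets 5 were below and 2 above without overlap. Their median was -0.35, and over the leave-outs it ran from -0.52 to 0.07, the highest without EV replicate 1. *Pim3*, a survival kinase, had 686 and 734 CPM in EV and 630.2 and 1013 CPM in eIF4A2FL (log2 0.21 ± 0.34). *Tfcp2l1*, a naive factor downstream of STAT3, had 625 and 556 CPM in EV and 1014 and 753 CPM in eIF4A2FL (log2 0.58 ± 0.33). *Socs3*, the feedback inhibitor, had 18.2 and 17.4 CPM in EV and 12.6 and 7.66 CPM in eIF4A2FL (log2 -0.83 ± 0.44). The groups overlapped for *Pim3*, and did not for the higher *Tfcp2l1* and the lower *Socs3*.

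The pluripotency network showed no common direction. Of 24 tested naive genes 6 were above and 5 below without overlap, with a median of 0.04, which ran from -0.38 without eIF4A2FL replicate 1 to 0.31 without EV replicate 1. Besides *Tfcp2l1*, the most abundant was *Esrrb*, an orphan nuclear receptor, with 509 and 354 CPM in EV and 596 and 599.8 CPM in eIF4A2FL (log2 0.47 ± 0.33). *Klf2*, a Krüppel-like factor, had 387 and 259.8 CPM in EV and 591 and 576 CPM in eIF4A2FL (log2 0.85 ± 0.33). Both were higher in both eIF4A2FL libraries, while the next was lower in both. *Dppa3* (Stella), a maternal factor and naive marker, had 16.1 and 15.9 CPM in EV and 6.499 and 5.47 CPM in eIF4A2FL (log2 -1.42 ± 0.45). *Nanog* overlapped at 211 and 193 CPM in EV and 247 and 177 CPM in eIF4A2FL. *Klf4* overlapped at 274 and 227 CPM in EV and 242 and 77.4 CPM in eIF4A2FL, with eIF4A2FL replicate 2 apart from the other 3.

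Of 10 core pluripotency genes 0 were above and 4 below without overlap, with a median of -0.30 that turned to 0.11 without EV replicate 1. *Dnmt3l*, a cofactor of DNA methyltransferases, had 905 and 397 CPM in EV and 564 and 868 CPM in eIF4A2FL (log2 0.14 ± 0.41). *Trim28*, a corepressor of retroelements, had 684 and 391 CPM in EV and 556 and 466 CPM in eIF4A2FL (log2 -0.07 ± 0.35). The groups overlapped for both, and lay apart for the next pair. *Tdgf1* (Cripto), a Nodal co-receptor, had 270.3 and 281 CPM in EV and 159 and 112 CPM in eIF4A2FL (log2 -1.02 ± 0.32). *Sox2* had 334 and 291 CPM in EV and 231 and 215 CPM in eIF4A2FL (log2 -0.49 ± 0.31). *Pou5f1* (Oct4) had few counted tags in all 4, at 20.7 and 8.72 CPM in EV and 16.4 and 5.63 CPM in eIF4A2FL. Reads that matched several places were left uncounted, so this level is uncertain. Among 15 tested formative and primed genes 4 were above and 3 below; besides *Etv4*, given above, *Tcf7l1*, a repressor of naive genes, had 419 and 515 CPM in EV and 371 and 428 CPM in eIF4A2FL. *Otx2* had 16.4 and 15.04 CPM in EV and 56.03 and 16.4 CPM in eIF4A2FL, the high value being that of 1 clone.

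**Figure D5:**
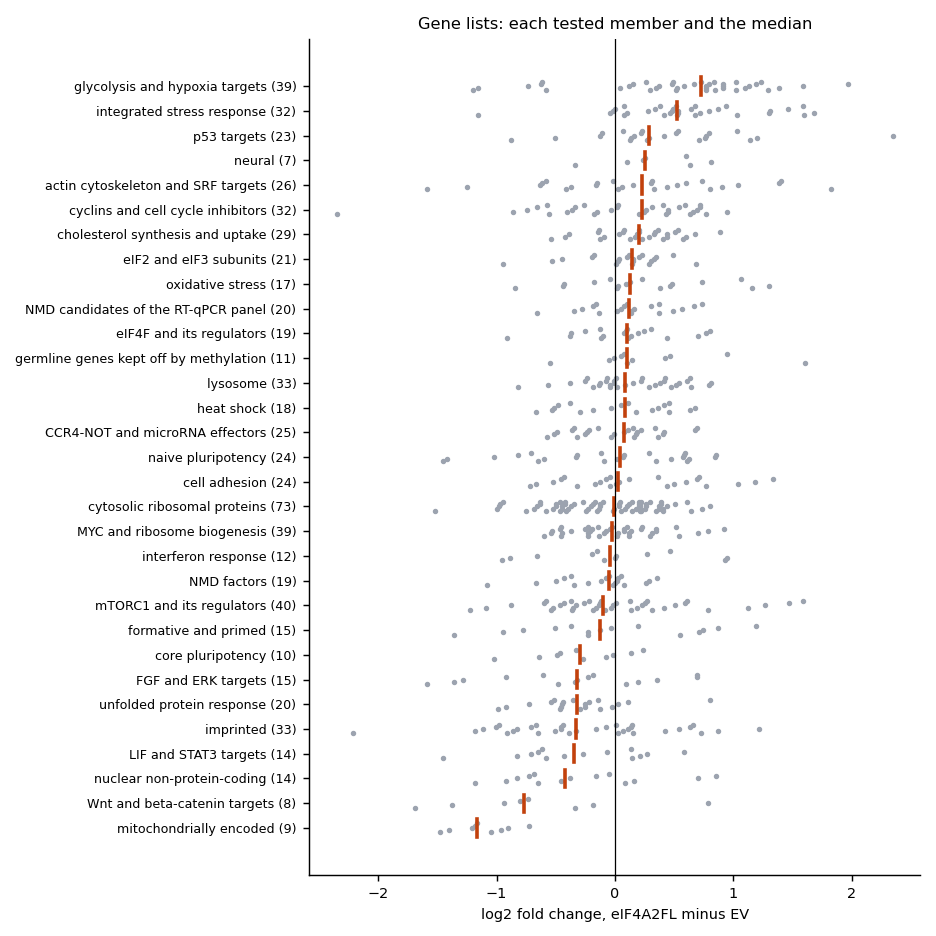
log2 fold change (eIF4A2FL minus EV, x axis) of every tested member (points) and the median (bar) of the gene lists with at least 7 tested members, the number tested in brackets. The medians run from -1.16 for the mitochondrially encoded RNAs to 0.72 for the glycolysis and hypoxia list, and most lie near the -0.01 of all tested genes.

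Components of the machinery in which eIF4A2 works showed small differences. Of 19 tested eIF4F genes and regulators 4 were above and 1 below without overlap, with a median of 0.10. *Pabpc1*, the cytoplasmic poly(A)-binding protein, had 660.4 and 619 CPM in EV and 694 and 295 CPM in eIF4A2FL (log2 -0.37 ± 0.40). *Eif4g2*, a relative of the eIF4G scaffold, had 512 and 402 CPM in EV and 431 and 336 CPM in eIF4A2FL (log2 -0.25 ± 0.32). Both overlapped, unlike the pair that follows. *Eif4b*, a cofactor that stimulates the helicase, had 257 and 189.5 CPM in EV and 366 and 358 CPM in eIF4A2FL (log2 0.70 ± 0.32). *Mknk2*, an eIF4E kinase, had 30.9 and 49.6 CPM in EV and 17.5 and 24.9 CPM in eIF4A2FL (log2 -0.91 ± 0.38). Of 25 tested CCR4-NOT and microRNA effector genes 7 were above and 4 below, with a median of 0.08. *Drosha*, the nuclear microRNA processor, had 508 and 531 CPM in EV and 462 and 265 CPM in eIF4A2FL (log2 -0.52 ± 0.35). *Ago2*, the slicer Argonaute, had 161 and 126 CPM in EV and 207 and 174 CPM in eIF4A2FL (log2 0.41 ± 0.31). The 21 eIF2 and eIF3 subunits had a median of 0.14, with 2 above and 2 below, and *Eif3h* and *Eif2s2*, the most abundant, overlapped at log2 0.16 and 0.31.

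The study arrived at eIF4A2 through nonsense-mediated decay (NMD), which degrades mRNAs with premature stop codons. Of 19 NMD factors 1 was above and 4 below without overlap, with a median of -0.05. The exon junction genes *Rbm8a* and *Magoh* were the most abundant and overlapped, at log2 0.26 and 0.03. *Smg5*, an adaptor of the decay step, had 48.4 and 55.9 CPM in EV and 33.6 and 40.2 CPM in eIF4A2FL (log2 -0.49 ± 0.33). Of 20 genes listed from the study's RT-qPCR panels of candidate NMD targets and controls 5 were above and 1 below, with a median of 0.12. *Usp48* had 417 and 429 CPM in EV and 509 and 534 CPM in eIF4A2FL (log2 0.30 ± 0.31). *Arih2* had 277 and 488 CPM in EV and 396 and 411 CPM in eIF4A2FL (log2 0.08 ± 0.35). The 1 below was *Lsm14b*, with 75.5 and 118 CPM in EV and 69.9 and 52.4 CPM in eIF4A2FL. No member of either list had an unadjusted p under 0.05.

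Of 40 tested mTORC1 components and regulators 9 were above and 12 below without overlap, with a median of -0.10. *Rraga* and *Lamtor2*, of the lysosomal anchor, overlapped at log2 0.18 and 0.31. *Deptor*, an inhibitory subunit, had 15.2 and 24.96 CPM in EV and 54.2 and 32.9 CPM in eIF4A2FL (log2 1.13 ± 0.40). *Castor1*, an arginine sensor, had 14.2 and 18.04 CPM in EV and 5.603 and 7.98 CPM in eIF4A2FL (log2 -1.23 ± 0.46). The 73 tested cytosolic ribosomal protein genes had a median of -0.01, with 20 above (27.4%) and 8 below. Their most abundant members, *Rps20* and *Rpl8*, stood at log2 0.14 and 0.51. Processed copies of such genes make single values uncertain.

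Other stress pathways were mixed. Of 20 unfolded protein response genes 0 were above and 6 below without overlap, with a median of -0.32. EV replicate 2 was the highest library for 15 of them, and without it the median was -0.07. *Hspa5* (BiP), the chief chaperone, had 1562 and 1411 CPM in EV and 1539 and 1672 CPM in eIF4A2FL (log2 0.11 ± 0.33). *Calr*, a lectin chaperone, had 989 and 1046 CPM in EV and 1021 and 839.8 CPM in eIF4A2FL (log2 -0.13 ± 0.32). *Pdia4*, a disulfide isomerase, had 224 and 184 CPM in EV and 149 and 57.6 CPM in eIF4A2FL (log2 -0.99 ± 0.41). Of 17 oxidative stress genes 5 were above and 2 below, with a median of 0.13. The abundant *Mt2* and *Prdx1* overlapped, at log2 0.09 and 0.47. *Nqo1*, a quinone reductase and NRF2 target, had 24.8 and 16.8 CPM in EV and 50.9 and 42.7 CPM in eIF4A2FL (log2 1.16 ± 0.36). The 18 heat shock genes had a median of 0.08, with 3 above and 5 below, and *Hsp90ab1* and *Hsp90aa1* overlapped at log2 0.37 and 0.46.

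In the cell cycle list of 32 tested genes 7 were above and 8 below. The mitotic kinase gene *Cdk1* overlapped at log2 0.45. Of the D-type cyclins other than *Ccnd2*, *Ccnd1* overlapped and *Ccnd3* had 571 and 621 CPM in EV and 515 and 562 CPM in eIF4A2FL (log2 -0.15 ± 0.31). *Ccne1*, the cyclin of S phase entry, had 433 and 393 CPM in EV and 221 and 272 CPM in eIF4A2FL (log2 -0.74 ± 0.31). *Plk1*, a mitotic kinase, had 284 and 169 CPM in EV and 388 and 484 CPM in eIF4A2FL (log2 0.94 ± 0.35). Of 33 imprinted genes 5 were above and 9 below, with a median of -0.33 that was -0.15 without EV replicate 1 and -0.21 without EV replicate 2. *Meg3*, a maternally expressed noncoding RNA, had 823 and 1042 CPM in EV and 596 and 762 CPM in eIF4A2FL (log2 -0.46 ± 0.33). *Slc38a4*, an amino acid transporter, had 173 and 91.7 CPM in EV and 192 and 294 CPM in eIF4A2FL (log2 0.87 ± 0.38). These went in opposite directions, neither with overlap. *Rian*, a neighbour of *Meg3* in the Dlk1-Dio3 cluster, had 43.5 and 65.9 CPM in EV and 24.6 and 23.46 CPM in eIF4A2FL (log2 -1.18 ± 0.35). *Cd81*, a tetraspanin, had 52.4 and 41.2 CPM in EV and 107 and 111 CPM in eIF4A2FL (log2 1.22 ± 0.31).

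Adhesion and cytoskeleton genes included some of the most abundant with no overlap. Of 24 tested cell adhesion genes 7 were above and 2 below, with a median of 0.02. *Cdh1*, E-cadherin, had 2636 and 1724 CPM in EV and 3714 and 3435 CPM in eIF4A2FL (log2 0.71 ± 0.37). *Ctnnb1*, β-catenin, had 608 and 408 CPM in EV and 794 and 752 CPM in eIF4A2FL (log2 0.60 ± 0.33). Of 26 actin and SRF genes 8 were above and 4 below, with a median of 0.23. It was -0.001 without EV replicate 2, with 10 above and 10 below, and 0.54 without EV replicate 1. *Actb* overlapped at log2 0.31. *Tagln2*, an actin-binding protein, had 506 and 297 CPM in EV and 652 and 997 CPM in eIF4A2FL (log2 1.04 ± 0.37). *Cald1*, caldesmon, had 45.9 and 36.99 CPM in EV and 146 and 74.5 CPM in eIF4A2FL (log2 1.40 ± 0.37).

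Of 33 lysosome genes 13 were above (39.4%) and 3 below (9.09%), at a median of 0.08, with *Cd63* at log2 -0.38 and *Grn*, progranulin, at 0.64. Of 29 cholesterol genes 9 were above and 2 below, at 0.20, with *Mvd* at 0.57 and *Hmgcs1* at 0.44. Of 39 MYC and ribosome biogenesis genes 6 were above and 10 below, at -0.03; *Ncl*, nucleolin, had 3272 and 909 CPM in EV and 4345 and 3594 CPM in eIF4A2FL, and *Dkc1*, of the box H/ACA particle, overlapped at log2 -0.14. Of 12 interferon response genes 2 were above and 2 below, and the abundant *Ifitm3* and *Bst2* overlapped at log2 0.47 and -0.19. Of 14 tested nuclear noncoding RNAs 2 were above and 5 below, at -0.42, led by *Gm42418*, which overlapped, and *Meg3*. Lineage genes were mostly under the filter: 2 of 18 mesoderm and definitive endoderm genes, 6 of 22 extraembryonic endoderm, 3 of 15 trophoblast and 0 of 24 genes of the 2-cell-like state were tested, and 11 of 26 germline genes. Most of their most abundant tested members overlapped. These were *Eomes* at log2 -0.73, *Mesp2* at 0.001, *Sparc* at -0.12, *Lamb1* at 0.01, *Tfap2c* at 0.16 and *Zfp42* (Rex1) at 0.08. The exception was *Rpl10l* of the germline list, higher as given above, where its reads could not be separated from those of *Rpl10* with certainty. Of 15 neural genes 7 were tested, 2 above and 0 below, with *Tubb3* at log2 0.25 apart and *Stmn2* at 0.24 overlapping. Of 20 genes of a wider fibroblast list 5 were tested, 2 above, among them *Fn1* at log2 0.44, and 2 below, among them *Vim* at -0.58; both are widely expressed. Of 13 Y-linked and X-inactivation genes 4 were tested, with *Uty* below at log2 -0.56 and *Ddx3y* overlapping at 0.74.

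Medians near 0 depended on single libraries. Over the 4 leave-outs they ran from -0.10 to 0.26 for heat shock, -0.07 to 0.33 for eIF2 and eIF3, -0.01 to 0.15 for eIF4F, -0.19 to 0.02 for the NMD factors and -0.13 to 0.11 for MYC and ribosome biogenesis. They ran from -0.14 to 0.17 for the formative and primed genes, -0.08 to 0.11 for the ribosomal proteins and -0.09 to 0.22 for cell adhesion, so these lists showed no stable direction. The cholesterol list stayed above 0, at 0.03 to 0.32, as did the RT-qPCR panel, at 0.04 to 0.33, the lysosome list, at 0.10 to 0.21, and the oxidative stress list, at 0.11 to 0.25.

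The requirement of 1 CPM in all 4 inputs left out transcripts that were detected in 1 group alone. The number of genes with at least 1 CPM in both libraries of a group and less in both of the other was 215 for eIF4A2FL and 159 for EV. Of these, 19 had no read in either EV library and 6 had none in either eIF4A2FL library. *Prickle2*, a planar cell polarity gene, had 25 and 24 reads in eIF4A2FL and 0 in EV. Its mean CPM in eIF4A2FL was 6.87-fold the mean limit of the EV libraries, 0.674 CPM. *Pax6*, a neural and eye transcription factor, had 23 and 8 reads in EV and 0 in eIF4A2FL. Its mean CPM in EV was 5.00-fold the mean limit of the eIF4A2FL libraries, 0.566 CPM. These ratios leave out the counting error of the reads that were seen. *Sox1* and *Nes*, other early neural genes, were read in all 4 libraries. *Peg13*, an imprinted noncoding RNA, had 16 and 10 reads in EV and 0 in eIF4A2FL. With no filter beyond 1 read, edgeR called 38 genes higher and 17 lower, and 17 of those 55 were genes left out above. Among these was *Map3k20*, a kinase that senses stalled ribosomes, with 3 and 8 reads in EV and 56 and 49 in eIF4A2FL. *Dsp*, a desmosomal plaque protein, had 6 and 8 reads in EV and 53 and 47 in eIF4A2FL. Of the 17 left-out calls, 13 were higher and 4 lower. In all 4 lower ones EV replicate 2 was the highest library. *Apol6* had 28 and 115 reads in EV and 7 and 0 in eIF4A2FL. *Nefm* had 4 and 107 against 20 and 2, *Pnma5* 0 and 118 against 18 and 9, and *Crygc* 3 and 36 against 1 and 0. The higher *Gm8994* had 0 and 8 against 82 and 0. The groups overlapped for *Nefm*, *Pnma5* and *Gm8994*. These genes were singled out after their values had been seen.

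The input libraries of the eIF4A2FL clones also differed from each other. Among genes above 10 CPM on average, the largest gap after *Gm42418* was that of *Ccdc36*, at 538 CPM in replicate 1 and 21.7 CPM in replicate 2 on the scale of all 8 libraries, followed by *Sez6* at 358 and 18.8 CPM. Each was also higher in EV replicate 1 (400.1 and 228 CPM) than in EV replicate 2 (222 and 90.3 CPM). The largest gap in the other direction was in *Mfsd13a*, at 5.91 and 36.6 CPM, with 6.32 and 7.24 CPM in EV. In the eIF4A2FL RIP replicates 1 and 2, *Ccdc36* had 4.501 and 4.256 CPM and *Sez6* had 2.06 and 1.596 CPM. *Mfsd13a* had 7.018 and 8.157 CPM there. Whether the gaps in the inputs belong to the clones was not tested. Across the 10754 genes, the log2 difference between eIF4A2FL replicates 2 and 1 in the inputs correlated with that in the RIP libraries of the same numbers at Pearson's r = 0.002 and Spearman's rho = 0.018, a description across genes, which are not independent.

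The RIP libraries, made from the same kinds of lysate and so not independent of the inputs, give these transcripts another measurement. All 12 leading higher transcripts had both eIF4A2FL RIP values above both EV RIP values, as did 46.7% of the tested genes, and of the 12 leading lower ones 4 had both below (14.9%), 6 overlapped, and *Gpn2* and *Gm28809* had both above. *Gpn2* had 4.22 and 0.618 CPM in the EV RIP and 29.8 and 12.9 CPM in the eIF4A2FL RIP. *Ccnd2* had 221 and 201 CPM in the EV RIP and 11.21 and 39.5 CPM in the eIF4A2FL RIP. *Gdf15* had no read in either EV RIP library and 118.5 and 98.5 CPM in the eIF4A2FL RIP. The EV RIP libraries hold little RNA and many zeros. *Id3* overlapped, at 35.4 and 155 CPM against 36.3 and 22.1 CPM. One label of RIP eIF4A2FL replicate 2 names Eif4a3, while its title and its other labels name *Eif4a2*, by which it was grouped. In a RIP library the level of an RNA and its binding cannot be told apart.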

How the data were processed

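Raw counts were deposited by the authors as 1 table with a column for each of the 8 libraries. Per the study's methods and the submitters' processing notes, 3′ tag reads were trimmed, mapped to mm10 with STAR 2.5.3a and counted on genes with HTSeq 0.11.2; which annotation release and strand setting were used is not given in the sources at hand. Reads that matched several places were not counted. A 3′ tag is 1 read per RNA end, so counts were not divided by gene length.

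The 5 HTSeq summary lines were dropped, which left 30.0% to 46.4% of an input's reads, 3204369 to 7269765 on genes. The table's 52550 gene IDs were named from the annotation (52403 matched). Genes with at least 1 CPM in all 4 inputs were tested in R 4.3.3 with edgeR 4.0.16 (TMM, quasi-likelihood test, Benjamini-Hochberg over 10754 genes, threshold 0.05), fitted on these 4 libraries. DESeq2 1.42.0 and limma 3.58.1 (voom) were alternatives. Sequence matches used blastn 2.17.0. The edgeR step was tested on simulated counts, drawn at a common dispersion and without shifts of single libraries. That simulation does not bear on the gene-wise spread or the differences in make-up of these inputs.

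*Eif4a2*, *Eif4a1*, *Gadd45b*, the 12 transcripts of smallest p in each direction (none passed) and the 2 members of highest mean CPM of each list were named by rule. The comparison and the 37 lists were chosen with earlier results of these data known. Gene lists were counted and not tested.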

Additional observations from a re-analysis of the deposited data

How the results depend on the processing

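In the 15 alternatives, the 26 named genes other than *Eif4a2* gave 386 values. Of these, 289 kept direction and side of the threshold, 94 kept direction and passed it, and 3 reversed. The reversals were *Gadd45b* with counts thinned to the smallest input (-0.075) and without 1 library, where it ran from -0.32 to 0.48. *Eif4a2* ran from -0.18 to 0.47 when a library was left out and was -0.18 without EV replicate 1 and -0.11 without eIF4A2FL replicate 1. The cause was not tested. Called transcripts, 0 higher and 0 lower in the main edgeR fit, numbered 1 and 2 with library size alone, 12 and 5 by DESeq2, 38 and 17 with no filter, and 1 and 2 after thinning. With a library left out they ran from 0 to 32 higher and from 0 to 53 lower. They stayed at 0 with DESeq2 size factors in edgeR, voom, all 8 libraries, filterByExpr, CPM on all reads and *Gm42418* left out. In the fit on all 8 libraries, 75 higher and 59 lower transcripts had an unadjusted p under 0.05.

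With the replicate number as a block (replicate block), edgeR called 39 transcripts higher and 22 lower. The labels do not say whether a replicate number marks a shared day or batch. Nor do they say why the library number of EV replicate 1 stands apart. The differences between replicates 2 and 1 correlated across genes at r = 0.118 between the groups, which over 2 pairs does not settle it. Log2 CPM itself correlated at Pearson's r = 0.946 between the EV inputs and 0.954 between the eIF4A2FL inputs. Across the groups r was 0.956 between the replicates numbered 1 and 0.936 between those numbered 2. By this measure EV replicate 1 was closer to eIF4A2FL replicate 1 than to EV replicate 2, so the libraries did not separate cleanly by group. *Gm42418*, *Ccdc36* and *Sez6* were higher in the replicate numbered 1 of both groups.

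With no filter, 3504 of 20287 transcripts (17.3%) had both eIF4A2FL inputs above both EV inputs and 2727 (13.4%) had both below. In the main fit these shares were 19.2% and 19.1%. With a library left out, 3517 to 3887 of 10754 (32.7% to 36.1%) lay above and 3542 to 3950 (32.9% to 36.7%) below. Leaving out a library was an alternative added after seeing the data, in which fewer libraries have to differ. Of 525 list medians 457 moved by less than the spread between replicates and 68 by more. Depth limits genes near 1 CPM, where 3 reads are 0.413 to 0.936 CPM.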
